A study of Arabidopsis thaliana with 6 samples.

Results

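The 3-ketoacyl-CoA synthases (KCS) are the condensing enzymes that start each round of elongation of very-long-chain fatty acids. The genes described here are KCS1 (AT1G01120), KCS2 (AT1G04220), KCS4 (AT1G19440), KCS5 (AT1G25450), KCS6 (AT1G68530), KCS8 (AT2G15090), KCS9 (AT2G16280), KCS11 (AT2G26640), KCS17 (AT4G34510) and KCS20 (AT5G43760). They were chosen by these locus identifiers and are 10 of the 33554 loci listed for each library. Messenger RNA was sequenced from root cells of 6-day-old Arabidopsis thaliana seedlings sorted by the green fluorescent protein of a reporter line. Epidermis was sorted from ProWER:GFP, cortex from ProAT1G09750:GFP, endodermis from 2 lines of ProSCR:GFP, stele (the vascular cylinder) from ProWOL:GFP and columella root cap from the enhancer trap line PET111. The 6 libraries therefore cover 5 cell types, endodermis has 2 libraries and each of the other 4 cell types has 1, and no gene is deleted and no treatment is named in any of them.

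Very-long-chain fatty acids are built in the endoplasmic reticulum by a complex of 4 enzymes, in which KCS joins malonyl-CoA to the growing acyl chain and a reductase, a dehydratase and a second reductase complete the cycle. The KCS isoform is known to set which chain lengths are made, while the other subunits are shared. In roots the products go into suberin of the endodermis and outer layers, into waxes and cuticles, and into sphingolipids and phospholipids of every cell.

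Levels are given as FPKM, fragments scaled by transcript length and by all mapped fragments, so genes can be compared within a library. The libraries summed to between 576322 and 642028 FPKM, and between 15999 and 17096 loci stood at 1 FPKM or more. The sources used here do not state how many reads each library had. Judged roughly by its lowest loci, a single read was worth an estimated 0.959 to 1.58 times what it was worth in endodermis line 1, with stele deepest and cortex shallowest. The labels were checked against markers of each layer. All 5 epidermis markers, 4 of 5 stele markers, 4 of 6 root cap markers and 5 of 6 endodermis markers were enriched in the cell type of their label under the rule of size given below, and 1 of 2 cortex markers was. Of all genes, 4.46% were enriched in epidermis, 1.55% in stele, 5.44% in columella root cap, 0.681% in endodermis and 0.824% in cortex. WER, the gene of the epidermis reporter, was at 91.3 FPKM in epidermis, AED3 (AT1G09750) at 43.0 in cortex, SCR at 59.7 and 147 in endodermis lines 1 and 2, and WOL at 46.0 in stele, each the highest library for that gene. CO2, the second cortex marker, was at 2.39 FPKM in cortex and at 6.97 in endodermis line 2. Markers of other layers were also present: the 6 root cap markers summed to 126 FPKM in epidermis, against 461 in columella root cap and at most 8.29 in the remaining libraries.

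Several KCS genes have a close copy, and the sequences of 3 pairs are shown because reads could be divided between such copies. Each stretch is 120 bases of coding sequence around the longest run that the pair shares, from the RefSeq assembly TAIR10.1, with the bases that differ within the pair in capitals. The submitters' processing notes name TAIR10, so these coordinates hold for TAIR10.1 only. KCS20 lies at chr5:17588261-17588380 on the plus strand, KCS2 at chr1:1119980-1120099 on the minus strand, KCS5 at chr1:8939990-8940109 and KCS6 at chr1:25714426-25714545, both on the minus strand, KCS9 at chr2:7051806-7051925 and KCS17 at chr4:16492338-16492457, both on the plus strand.
KCS20: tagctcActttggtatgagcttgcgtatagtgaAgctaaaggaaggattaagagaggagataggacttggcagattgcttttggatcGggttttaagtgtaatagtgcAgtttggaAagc
KCS2: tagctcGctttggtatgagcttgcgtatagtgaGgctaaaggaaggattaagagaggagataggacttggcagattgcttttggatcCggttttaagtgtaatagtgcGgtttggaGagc
KCS5: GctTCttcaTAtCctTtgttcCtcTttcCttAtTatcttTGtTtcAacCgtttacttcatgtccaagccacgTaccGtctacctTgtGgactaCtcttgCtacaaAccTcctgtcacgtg
KCS6: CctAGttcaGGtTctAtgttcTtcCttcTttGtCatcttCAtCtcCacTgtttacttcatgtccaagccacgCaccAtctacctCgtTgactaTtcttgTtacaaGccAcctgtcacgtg
KCS9: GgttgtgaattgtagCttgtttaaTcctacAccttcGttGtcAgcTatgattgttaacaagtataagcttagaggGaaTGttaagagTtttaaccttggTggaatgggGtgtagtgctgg
KCS17: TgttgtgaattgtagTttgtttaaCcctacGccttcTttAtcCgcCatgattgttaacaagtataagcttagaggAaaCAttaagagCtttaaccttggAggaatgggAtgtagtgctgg

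The KCS20 and KCS2 stretches differ at 5 of 120 bases, those of KCS5 and KCS6 at 25 and those of KCS9 and KCS17 at 14. Over the whole coding sequence KCS20 and KCS2 were 80.5% identical with a longest shared run of 53 bases, KCS5 and KCS6 80.5% with 23 bases, and KCS9 and KCS17 74.9% with 29 bases. KCS4 was closest to KCS9, at 73.6%. Within the 10 genes KCS1, KCS8 and KCS11 had no copy as close, with best matches of 62.7%, 64.7% and 65.98%. The 11 other KCS genes were not compared, so a closer copy among them was not looked for. How reads that map to several places were treated is not stated in those notes, so a low level beside a high level of the close copy is uncertain.

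In all 6 libraries 1 gene of each of these pairs held the higher level. The log2 ratio of FPKM + 1, KCS20 over KCS2, lay between 1.43 in columella root cap and 5.46 in endodermis line 2. For KCS5 over KCS6 it lay between 0.77 in stele and 4.97 in epidermis, and for KCS9 over KCS17 between 4.58 in epidermis and 6.10 in cortex. The direction was thus shared by all libraries, while the size of the KCS5 over KCS6 ratio came mostly from the level of KCS5 in epidermis.

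**Figure D1:**
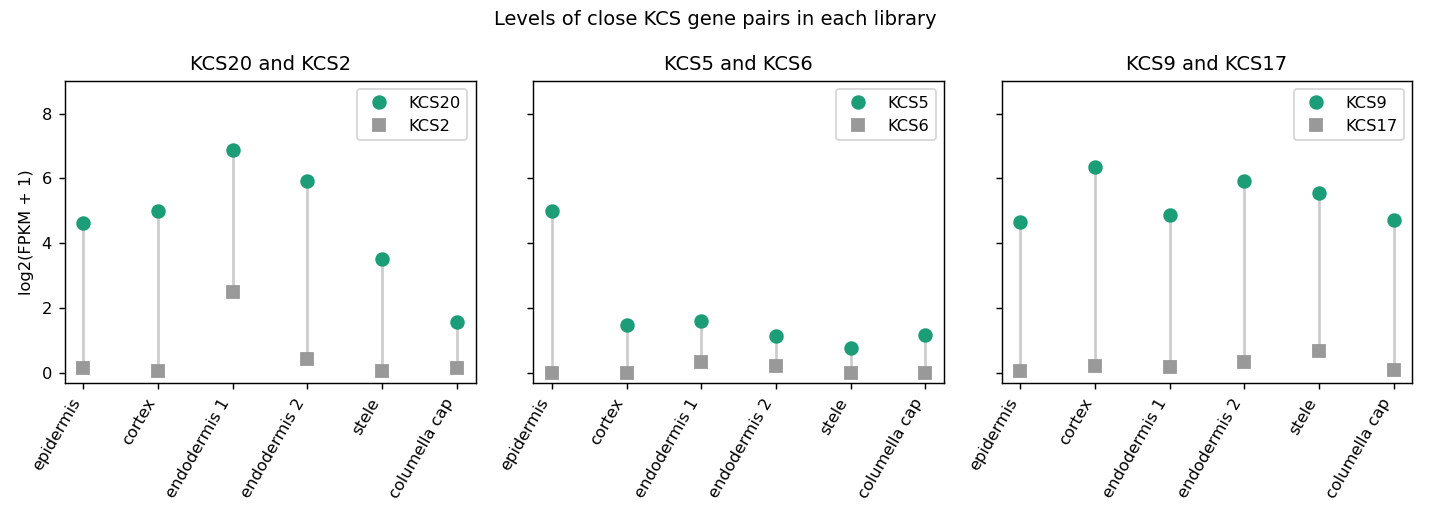
Levels of 3 pairs of KCS genes with similar coding sequence, as log2(FPKM + 1) on the vertical axis and the 6 libraries on the horizontal axis. Circles are KCS20, KCS5 and KCS9, squares are KCS2, KCS6 and KCS17, and each circle lies above its square.

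The 10 genes summed to 137 FPKM in epidermis, 190.5 in cortex, 296 and 185 in endodermis lines 1 and 2, 95.4 in stele and 53.2 in columella root cap. The endodermis mean was 240.1 ± 78.4 FPKM (SD, n = 2), and cortex lay within the range of the 2 lines. Columella root cap was the lowest library and stele the next. These genes, which were chosen with earlier results of these data known, made up between 94.2% and 99.5% of the FPKM of all 21 KCS genes. In bulk libraries such as these, fewer cells that express a gene and less RNA per cell cannot be told apart.

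Libraries differed in which KCS genes made up this sum. KCS9 was the largest component in cortex, endodermis line 2, stele and columella root cap, with 42.1%, 32.3%, 48.3% and 48.3%. KCS20 was largest in endodermis line 1, with 39.7%, and stood level with KCS9 in line 2, with 32.2%. In epidermis KCS4 and KCS5 led with 23.2% and 22.4%, and no gene held more. KCS4 and KCS9 together held 81.8% in columella root cap and 71.7% in stele, the narrowest make-up of the 6 libraries.

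**Figure D2:**
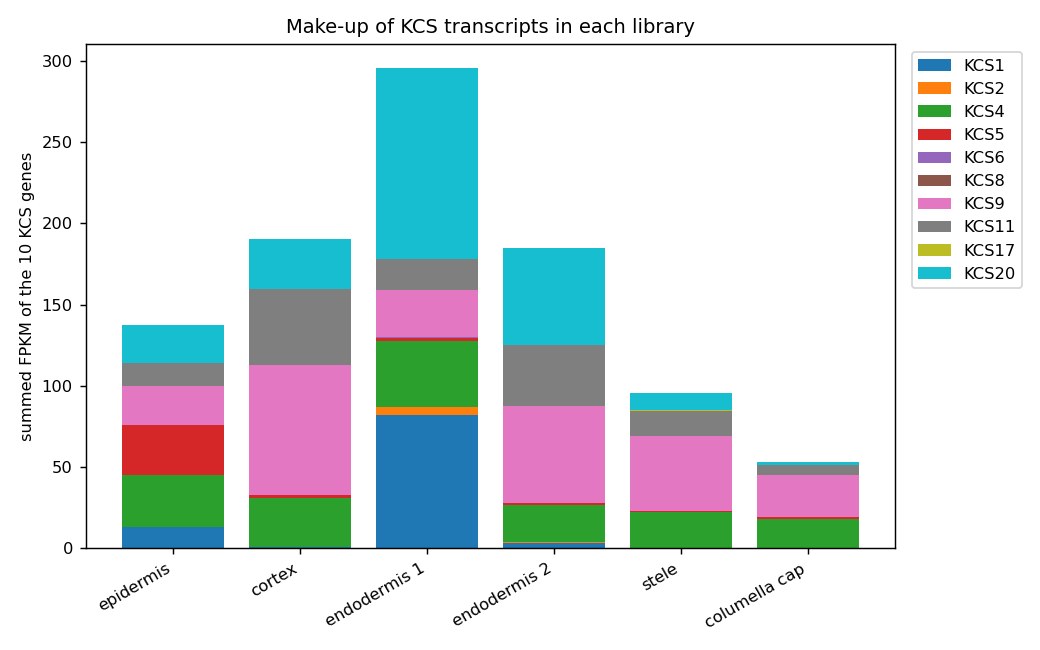
Summed FPKM of the 10 KCS genes in each library, with a coloured segment per gene on a linear axis from 0. Endodermis line 1 is the tallest bar at 296 FPKM, with large KCS20 and KCS1 segments, and columella root cap the shortest at 53.2.

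**Figure D3:**
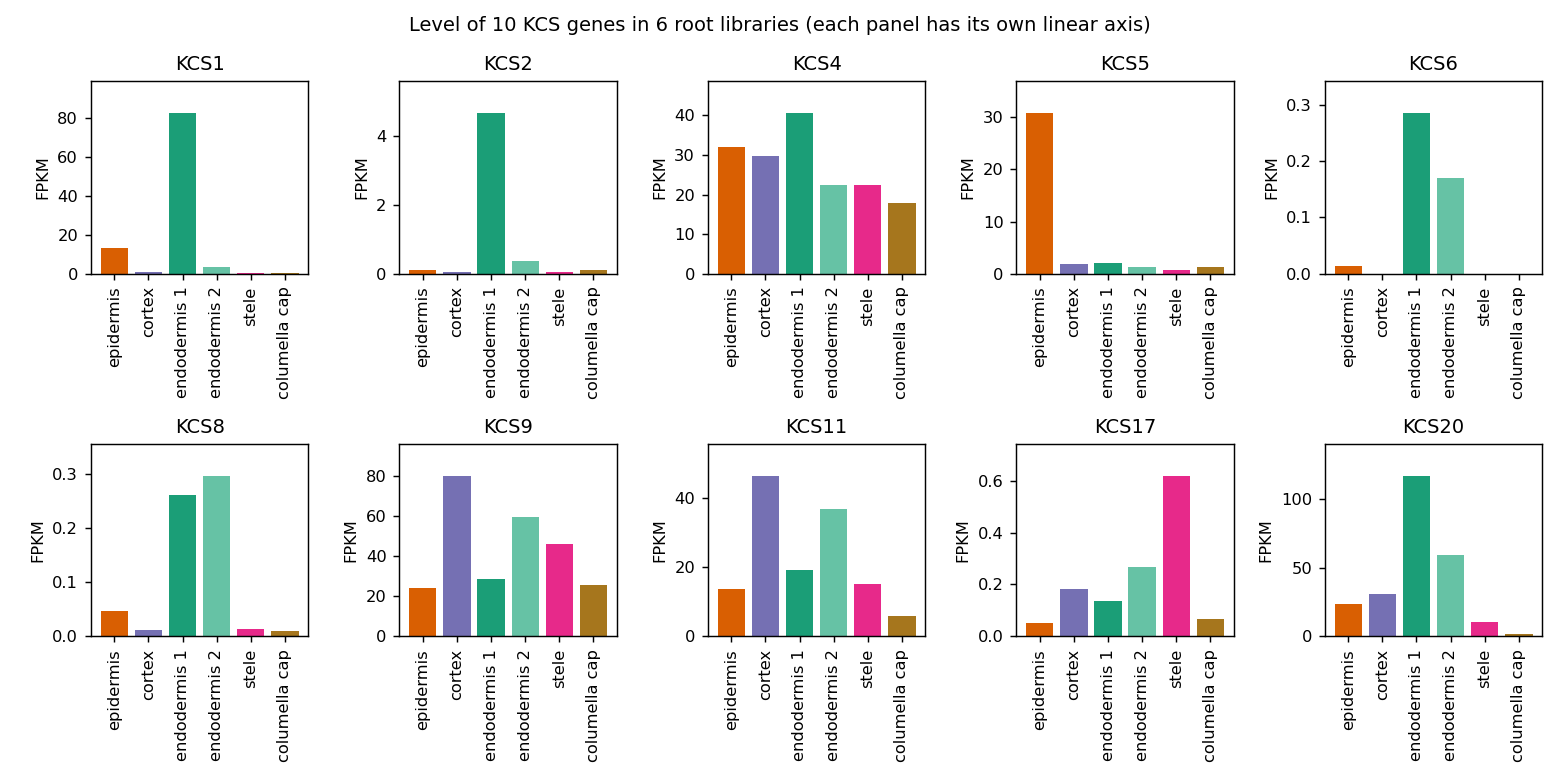
FPKM of each KCS gene in the 6 libraries, with a panel and a linear axis from 0 for each gene and a bar per library. KCS5 has its tall bar in epidermis, KCS1, KCS2 and KCS20 in endodermis line 1, and KCS9 and KCS11 in cortex, while KCS4 is high in every library.

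The first comparison asked which of these genes set a cell type apart from the other 4. Under a rule of size, an enriched gene exceeded each library of all other layers by a log2(FPKM + 1) margin of 1, which is 2-fold, and reached 5 FPKM, and a depleted gene was the mirror case. This rule has no p-value, since 4 cell types have 1 library. As a secondary test, limma set a cell type against the average of the remaining 4, with Benjamini-Hochberg adjustment over all 19671 genes at 1 FPKM or more in any library. Its spread comes from the 2 endodermis lines alone, and it assumes that the other cell types vary as they do. Of the 10 KCS genes 7 reached that level, and KCS6, KCS8 and KCS17 did not.

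KCS5, known for its part in elongating the precursors of cuticular wax, set the epidermis apart. It was at 30.8 FPKM in epidermis, against 1.78 in cortex, 2.07 and 1.24 in endodermis lines 1 and 2, 0.708 in stele and 1.27 in columella root cap. The epidermis library lay far above the others, which all lay within 0.708 to 2.07 FPKM. It was 14.9-fold above the next library, and its log2 difference from the average of the remaining layers was 3.78 ± 0.87 (SE; limma adjusted p = 0.000497). KCS5 was the 1 KCS gene enriched in epidermis, where 4.46% of all genes were enriched, and also the 1 called higher by limma, with 6.19% of all genes called higher. The limma call was kept in 5 of 6 alternative settings and lost with no filter on low values (limma adjusted p = 0.421). No KCS gene was depleted or called lower in epidermis, where 0.966% and 0.473% of all genes were. In the order of its levels, only the gap between epidermis and cortex, 3.51 on the log2 scale, exceeded the spread, taken as the larger of this gene's own gap between the endodermis lines and the median gap over genes, 0.88.

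Some genes of cutin and wax were enriched in the same layer. Of 19 such genes 11 were measured at 1 FPKM or more. None of the 11 was depleted in epidermis, where 0.966% of all genes were. Enriched there were 5, against 4.46% of all genes, namely CER3, CER4, GPAT8, CYP86A2 and MYB30. All 5 were also called by limma, with adjusted p between 3.39e-11 for CER4 and 0.00603 for CER3. All 5 calls were lost with no filter on low values, those of CER3, GPAT8 and MYB30 without the limma trend as well, and those of CER3 and GPAT8 also with size factors. CER4, a reductase that makes fatty alcohols from very-long-chain acyl-CoA, reached 48.4 FPKM in epidermis, against 0.949 or less in every other library. CER3, which acts in alkane formation, reached 19.1 FPKM in epidermis, with 2.77 or less in the others. CYP86A2, a fatty acid hydroxylase of cutin synthesis, reached 17.8 FPKM there, with 1.06 or less in the others. MYB30, a transcription factor known to activate very-long-chain fatty acid genes, reached 10.4 FPKM there, with 1.24 or less in the others. GPAT8, an acyltransferase of cutin synthesis, was at 8.97 FPKM in epidermis and 3.24 in endodermis line 1. Other genes of this list went the other way. CER1, GPAT4 and DCR, examples chosen after their values were seen, had their lowest level in epidermis, at 0.0444, 0.114 and 0.386 FPKM. Of the suberin list ABCG1, a transporter of suberin precursors, was enriched in epidermis, at 57.0 FPKM against at most 16.1, in columella root cap.

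The median log2 difference of the 11 measured cutin and wax genes in epidermis was 0.27, against -0.39 over all genes measured. Root cap markers were also elevated in this library, as given above, and 6 stress genes summed to 639 FPKM in epidermis, against 1118 in columella root cap, 571 and 110 in endodermis lines 1 and 2, 141 in cortex and 60.8 in stele. The part of either in the level of KCS5 was not tested. By the root mean square difference between profiles centred on their mean over the 6 libraries, the genes outside the family most like KCS5 among 16087 were ROH1 (AT1G63930) and AT3G50130, at 0.15 each on the log2 scale. They stood at 21.5 and 15.3 FPKM in epidermis and at most 1.02 and 1.22 elsewhere.

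Limma called KCS20, KCS1 and KCS2 higher in endodermis. In the order of levels, endodermis exceeded the next cell type beyond the spread for KCS20, but not for KCS1 or KCS2. KCS20 and KCS2 are known to act together in root suberin and wax, and KCS1 in wax. KCS20 stood at 117 and 59.5 FPKM in endodermis lines 1 and 2, against 31.0 in cortex, 23.6 in epidermis, 10.4 in stele and 2.0 in columella root cap. Both lines lay above every other library. How many of all genes share that order was not counted. The mean was 88.4 ± 40.9 FPKM (SD, n = 2), and the log2 difference from the other cell types was 2.72 ± 0.70 (SE; limma adjusted p = 0.00839). KCS20 missed the 2-fold rule, as line 2 stood 0.92 above cortex on the log2 scale.

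KCS1 stood at 82.4 and 3.67 FPKM in endodermis lines 1 and 2, against 13.0 in epidermis, 0.906 in cortex, 0.129 in stele and 0.190 in columella root cap. Line 1 was the highest library, while line 2 lay below epidermis, so the groups overlapped. The mean was 43.0 ± 55.7 FPKM (SD, n = 2) and the log2 difference 3.01 ± 0.78 (SE; limma adjusted p = 0.00939), an SE that comes from the spread shared over genes and not from the 22.5-fold gap between the lines of KCS1. Without endodermis line 1, KCS1 was enriched in epidermis, and without line 2 it was enriched in endodermis.

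KCS2 stood at 4.68 and 0.372 FPKM in endodermis lines 1 and 2, against 0.114 in epidermis, 0.0548 in cortex, 0.0617 in stele and 0.111 in columella root cap. Both lines lay above the other libraries, again with no count over all genes, and line 2 stood below 1 FPKM. The log2 difference was 1.36 ± 0.32 (SE; limma adjusted p = 0.00211), and no library reached the 5 FPKM that the rule of size asks for. Under that rule 0 of the KCS genes were enriched in endodermis, with 0.681% of all genes enriched, and limma called 3 of the 7 measured, with 1.91% of all genes called higher. KCS2 was among the 7 only because endodermis line 1 reached 1 FPKM, so its call is not independent of that filter. None was depleted or called lower in endodermis, where 0% and 0.249% of all genes were. KCS20 and KCS1 were both enriched when the endodermis lines were averaged or when line 2 was left out. In 3 of 6 alternative limma settings the calls of KCS20 and KCS1 were lost, among them FPKM divided by size factors (limma adjusted p = 0.482 and 0.797), and that of KCS2 was lost in 4 of 5, among them a pseudocount of 0.1 (limma adjusted p = 0.0803).

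The second comparison set endodermis line 1 beside line 2, which share a reporter. KCS1 was 22.5-fold and KCS2 12.6-fold higher in line 1, and KCS20 and KCS4 1.97-fold and 1.81-fold. KCS9 and KCS11 ran the other way, at 28.6 and 19.3 FPKM in line 1 and at 59.7 and 37.0 FPKM in line 2. On log2(FPKM + 1) the difference of KCS1 was 4.16, above 99.4% of the 13740 genes at 5 FPKM or more in either line, and that of KCS9 was -1.04, above 21.7% of them. KCS1 was the 1 KCS gene at least 2-fold higher in line 1 with 5 FPKM, where 13.9% of all genes were, and KCS9 the 1 that was 2-fold lower, where 16.1% were. With 1 library per line there is no test of this difference.

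**Figure D4:**
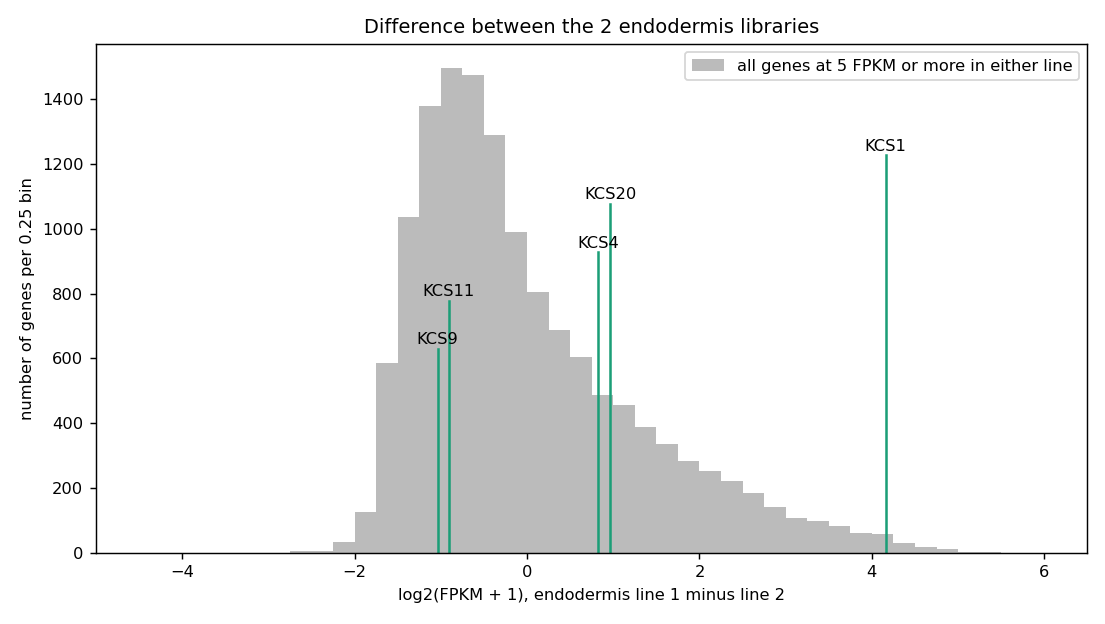
Histogram of the difference in log2(FPKM + 1), endodermis line 1 minus line 2, over 13740 genes at 5 FPKM or more in either line, in bins of 0.25. Green lines mark the KCS genes at that level, with KCS1 at 4.16 in the right tail and KCS9 and KCS11 at -1.04 and -0.91 near the peak of the distribution (the heights of the lines carry no value).

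Of the 7 measured suberin genes ASFT and ABCG1, and of the 7 suberin MYB genes MYB9, were at least 2-fold higher in line 1 with 5 FPKM, where 13.9% of all genes were. MYB53 was at least 2-fold lower, where 16.1% were. ASFT, which attaches ferulate to suberin monomers, reached 88.2 and 6.48 FPKM in endodermis lines 1 and 2, with 0.454 or less in the other libraries, and was the 1 suberin gene of 7 measured that was enriched in endodermis (limma adjusted p = 9.69e-08, lost in the same 3 alternative settings as KCS20). The 7 suberin MYB genes are known to switch on suberin synthesis. None was enriched in endodermis under the rule of size, where 0.681% of all genes were. Limma called 4 of the 7 higher there, against 1.91% of all genes, namely MYB39, MYB41, MYB53 and MYB92. Of these, MYB39 and MYB41 reached 1 FPKM only in line 1, and MYB53 only in the endodermis lines. The count is therefore not independent of that filter. In each of the 4 called MYB genes the call was lost with no filter on low values, with size factors and without the limma trend. The MYB genes described next were chosen after their values were seen. MYB92 reached 56.1 and 50.4 FPKM in endodermis lines 1 and 2, against 29.3 in columella root cap and 2.71 or less in the remaining libraries. MYB9 was at 20.7 and 1.56 FPKM in lines 1 and 2, and MYB39 at 4.60 and 0.0977 FPKM. MYB53 ran the other way, at 2.96 and 8.08 FPKM. The median log2 difference, line 1 minus line 2, was 1.15 over the 7 measured suberin genes and 1.14 over the 7 MYB genes, against -0.18 over all genes. CYP86B1, GPAT7, MYB39, MYB41, MYB93 and MYB107 were measured only because line 1 reached 1 FPKM. Both medians therefore follow in part from that filter.

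Several enzymes of suberin monomer synthesis were low even in line 1. GPAT5, CYP86A1 and FAR4, chosen as examples after their values were seen, were at 0.411, 0.518 and 0.407 FPKM there. The whole suberin list of 13 genes summed to 104 and 11.6 FPKM in lines 1 and 2, of which ASFT was the largest part. FAR5, a reductase that makes fatty alcohols for suberin, was enriched in columella root cap, at 17.2 FPKM against at most 1.19 in the other libraries. CER1, an enzyme of alkane formation, was enriched in endodermis at 8.27 and 8.33 FPKM in lines 1 and 2, against at most 0.514 elsewhere.

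Markers of the layer and of stress moved with this difference. The 6 endodermis markers summed to 5019 and 438 FPKM in lines 1 and 2. Of the 6, 5 were at least 2-fold higher in line 1 with 5 FPKM, where 13.9% of all genes were. Among them was CASP1, a Casparian strip protein, at 2045 and 85.2 FPKM. SCR, the reporter gene, was lower in line 1, at 59.7 and 147 FPKM. The stress genes summed to 571 and 110 FPKM, and 5 of 6 were at least 2-fold higher in line 1, against the same 13.9% of all genes. The part of these markers in the levels of KCS1, KCS2 and KCS20 was not tested.

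**Figure D5:**
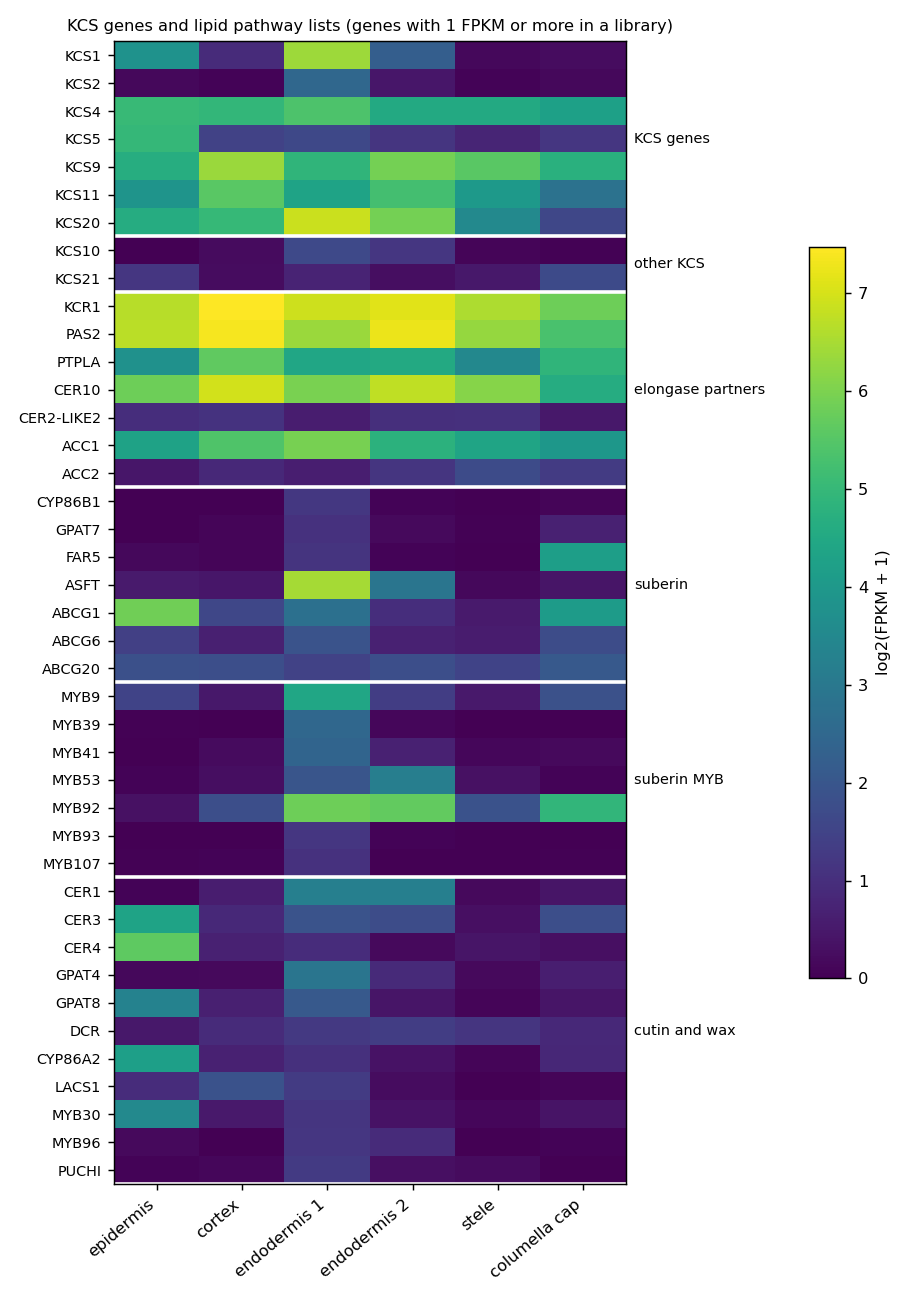
Heat map of log2(FPKM + 1) for the KCS genes and lipid pathway genes at 1 FPKM or more in a library, with libraries as columns and gene lists divided by white lines. KCS5, CER3, CER4, CYP86A2 and MYB30 are bright in epidermis, and KCS1, ASFT and MYB9 in endodermis line 1.

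KCS9, which makes fatty acids used in waxes, suberin and membrane lipids, and KCS11 were highest in cortex. KCS9 was at 80.2 FPKM in cortex, against 28.6 and 59.7 in endodermis lines 1 and 2, 46.0 in stele, 25.7 in columella root cap and 24.2 in epidermis. KCS11 was at 46.5 FPKM in cortex, against 19.3 and 37.0 in endodermis lines 1 and 2, 15.1 in stele, 13.7 in epidermis and 6.02 in columella root cap. The cortex margins over endodermis line 2 were 1.34-fold and 1.26-fold. No KCS gene was enriched or depleted in cortex, where 0.824% and 0.0458% of all genes were. Limma called 0 of the 7 higher or lower in cortex, against 0.508% and 0.00508% of all genes, with 0 of the 7 at an unadjusted p under 0.05. Over the 6 libraries, which share their scaling, Pearson r on log2(FPKM + 1) between measured KCS genes ran between -0.49 for KCS5 and KCS9 and 0.85 for KCS1 and KCS2. It was 0.84 for KCS9 and KCS11 and likewise for KCS1 and KCS4, and 0.79 for KCS4 and KCS20.

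KCS4 was the least variable of the measured genes. It stood at 40.6 and 22.5 FPKM in endodermis lines 1 and 2, 31.9 in epidermis, 29.8 in cortex, 22.3 in stele and 17.8 in columella root cap. The highest library was 2.28-fold above the lowest, and no neighbouring cell types in its order differed beyond the spread. No neighbouring cell types differed beyond the spread for KCS9, KCS1 and KCS2 either. Their spread was wide, as it was their own gap between the lines, at 1.04, 4.16 and 2.05.

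Columella root cap was low in several KCS genes. KCS20 and KCS11 were depleted there, 2 of the 7 measured, where 1.11% of all genes were depleted. None was enriched or called higher by limma there, where 5.44% and 4.71% of all genes were. KCS20 stood at 2.0 FPKM in columella root cap, with 10.4 or more in every other library, a log2 difference of -3.30 ± 0.89 (SE; limma adjusted p = 0.00761), and was the 1 KCS gene called lower by limma, which called 0.336% of all genes lower. That call was lost in 3 of 6 alternative settings (limma adjusted p between 0.00506 and 0.297 over the 6). KCS11 was at 6.02 FPKM against at least 13.7, a log2 margin of 1.07, and its limma adjusted p was 0.403. KCS1 and KCS5, at 0.190 and 1.27 FPKM, lay within the range of the other libraries.

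In its order of levels KCS20 fell into 4 steps, with endodermis above cortex and epidermis, these above stele, and stele above columella root cap, and only cortex and epidermis did not differ beyond the spread. The genes outside the family most like KCS20 were MYBC1 (AT2G40970) and DELTA-TIP (AT3G16240), a vacuolar water channel, at root mean square differences of 0.45 and 0.49. MYBC1 reached 99.2 and 35.8 FPKM in endodermis lines 1 and 2, against 2.65 in columella root cap. Those most like KCS11 were GLB1 (AT4G01900) and FPS1 (AT5G47770), a farnesyl diphosphate synthase, at 0.10 and 0.17, both highest in cortex, at 93.0 and 458 FPKM, and lowest in columella root cap, at 12.9 and 78.1.

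In stele no KCS gene was enriched or depleted, where 1.55% and 2.2% of all genes were, and limma called none of 7 higher or lower, against 0.961% and 2.01% of all genes, with 1 of the 7, KCS1, at an unadjusted p under 0.05. KCS17 had its highest level in stele, at 0.618 FPKM, against 0.135 and 0.266 in endodermis lines 1 and 2, 0.181 in cortex, 0.0652 in columella root cap and 0.0533 in epidermis. KCS6, the main wax synthase of the shoot epidermis, was at 0.0132 FPKM in epidermis and at 0.285 and 0.171 in endodermis lines 1 and 2, and was listed at 0 in the other 3 libraries. KCS8 reached 0.261 and 0.297 FPKM in endodermis lines 1 and 2, with 0.0475 or less elsewhere. None of these 3 genes reached 1 FPKM in any library, and their order was not read as a difference.

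Of the 11 other KCS genes, 2 reached 1 FPKM and are named after their values were seen. KCS10 (FIDDLEHEAD), known from the cuticle of floral organs, reached 2.12 and 1.27 FPKM in endodermis lines 1 and 2, with 0.171 or less elsewhere (limma adjusted p = 0.00263, lost in 3 of 5 alternative settings). It was measured only through the endodermis lines, so that call is not independent of the filter at 1 FPKM. KCS21 reached 2.19 FPKM in columella root cap, against 1.29 in epidermis and at most 0.673 elsewhere. None was enriched or depleted.

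The 3 enzymes that complete the elongase cycle were present in every library, and their levels are given after they were seen. KCR1, the ketoacyl-CoA reductase, was at 55.8 FPKM in columella root cap and between 93.5 and 177 in the other libraries. PAS2, the dehydratase, was at 39.5 FPKM in columella root cap and between 77.2 and 166 in the others. CER10, the enoyl-CoA reductase, was at 23.8 FPKM in columella root cap and between 55.3 and 123 in the others, and was the 1 of 7 measured partners that was depleted there. Each of the 3 was highest in cortex. Limma called none of the 7 partners in any cell type, with 0 at an unadjusted p under 0.05 in all 5 comparisons. The summed FPKM of the 10 KCS genes was 1.13 times that of these 3 partners in endodermis line 1, and between 0.399 and 0.529 times in the other 5 libraries. ACC1, which supplies malonyl-CoA, stood at 60.2 and 26.7 FPKM in endodermis lines 1 and 2.

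Sphingolipid genes, whose products take up very-long-chain fatty acids, showed few differences. All 14 were measured. In columella root cap 2 were depleted, where 1.11% of all genes were, and 1 was enriched in stele, where 1.55% were. SBH2, a sphingoid base hydroxylase, stood at 20.9 FPKM in columella root cap, with 84.2 or more elsewhere, and FAH2, a fatty acid hydroxylase, at 16.6 against at least 60.6. LOH2, a ceramide synthase, was at 70.7 FPKM in stele against at most 29.6 elsewhere. Limma called none of the 14 in any cell type, with SBH2 and FAH2 at an unadjusted p under 0.05 in columella root cap and 0 in the other 4. The median log2 difference in columella root cap was -0.71 over these 14 genes, -0.91 over the 7 partners and -0.98 over the 7 measured KCS genes, against -0.05 over all genes.

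The promoters were read because KCS5 and KCS20 had the clearest layer patterns. The 250 bases before the RefSeq gene start (TAIR10.1) are shown for KCS5 (chr1:8940614-8940863, minus strand) and KCS20 (chr5:17585273-17585522, plus strand), in the direction of transcription, with matches to the searched motifs in capitals.
KCS5: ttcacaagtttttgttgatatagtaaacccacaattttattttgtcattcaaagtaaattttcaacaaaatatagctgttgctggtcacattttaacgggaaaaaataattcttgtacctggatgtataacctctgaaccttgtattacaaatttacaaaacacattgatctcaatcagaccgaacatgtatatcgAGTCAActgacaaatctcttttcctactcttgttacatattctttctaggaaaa
KCS20: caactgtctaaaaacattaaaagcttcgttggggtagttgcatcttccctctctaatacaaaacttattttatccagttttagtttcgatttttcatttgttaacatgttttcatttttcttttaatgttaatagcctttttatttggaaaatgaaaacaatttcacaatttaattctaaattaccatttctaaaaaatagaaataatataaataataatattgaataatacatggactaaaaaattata

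Motifs were searched on both strands in the promoters of all 10 genes and of 27443 protein-coding genes. The L1 box of epidermal genes, TAAATGTA or alternatively TAAATGCA, was in 1 of the 10, that of KCS9, 76 bases before the gene start, and in 4.49% of all promoters. The W box, spelled TTGACC and alternatively spelled TTGACT, was in that of KCS5 alone, 54 bases before the start, and in 28.4% of all. AC elements were searched as ACCTACC, also in the variant spelling ACCAACC and further in the variant spelling ACCTAAC, and were in that of KCS11 alone, 204 bases before the start, and in 6.12% of all. The G box, CACGTG, was in none of the 10 and in 6.49% of all. No promoter of the 10 held matches to more than 1 motif, so none overlapped, and a match is a run of letters only.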

How the data were processed

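RNA was measured in 6 libraries of sorted root cells. Per the labels' protocols, sorted cells went straight into lysis buffer and polyA+ RNA was prepared with a TruSeq kit of Illumina. The values the authors deposited are FPKM, with a file for each library. The submitters' processing notes name the build TAIR10 and, without roles or settings, Cufflinks 2.0.2, TopHat 1.3.1 and Bowtie 0.12.7. Annotation and strandedness are not stated. The labels name 2 endodermis lines, and nothing says that these came from separate cultures. Their spread may hold differences between lines as well as technical ones, and the part of each was not tested. No interval could be set on a single FPKM value, as read numbers are unknown.

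Levels were compared as log2(FPKM + 1), which understates differences of low genes, among the 19671 genes at 1 FPKM or more in any library. Some genes reached 1 FPKM in a single cell type, ASFT, CER1 and CER4 among them. These entered the comparisons only through that cell type. Both endodermis lines had to pass the rule of size. limma 3.58.1 in R 4.3.3 (eBayes with trend, 1 residual degree of freedom) called genes with a log2 difference of 1 or more and an adjusted p under 0.05. Its prior degrees of freedom were infinite, so p-values rest on the spread shared over genes. Both computations were tested on simulated data in Python 3.11.15. The simulated noise was equal for all genes and narrower than that between the endodermis lines. It therefore does not test limma on genes of unequal spread. Alternatives covered the pseudocount, minimum level, fold, scaling, averaging or leaving out endodermis lines, and limma settings. Named list genes are those enriched or depleted, at most 6 per list, and the reporter genes. Other list genes that are named, the marker and MYB genes, KCR1, PAS2, ACC1, KCS10 and KCS21 among them, were chosen after their values were seen. Likeness was computed among genes at 5 FPKM or more. Identity was computed on RefSeq coding sequences in place of proteins, by global alignment in Biopython 1.88. The KCS genes and all lists were chosen with earlier results of these data known.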

Additional observations from a re-analysis of the deposited data

How the results depend on the processing

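KCS5 stayed enriched in epidermis in all 11 alternatives of the rule of size (log2 margin 3.37 to 3.83), and KCS20 stayed depleted in columella root cap in all 11 (1.87 to 2.32). KCS11 lost its depletion with a 3-fold margin, which left 1 depleted gene there. KCS genes enriched in endodermis numbered 1 with a 1.5-fold margin (KCS20) and 2 with the mean of the lines (KCS1 and KCS20). With a line left out the count was 0 to 2 in endodermis, 1 to 2 in epidermis (KCS1 added without line 1) and 0 to 1 in cortex (KCS11 added without line 2). No paired analysis was possible because endodermis alone has 2 libraries, and without either line limma has no residual degrees of freedom.

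Limma depended on its settings more. With no filter on low values it called 0 KCS genes higher in epidermis, 0 higher in endodermis and 0 lower in columella root cap. With size factors, and likewise without the trend, it called 0 in endodermis and 0 in columella root cap, while KCS5 stayed called (adjusted p = 0.0375 and 0.0402). Adjusted p over the alternatives ran between 0.00273 and 0.421 for KCS5, 0.00507 and 1 for KCS1, and 0.00561 and 1 for KCS2. KCS2 was also lost with a pseudocount of 0.1. Prior degrees of freedom were 1.217 with no filter, 5.593 with size factors and 9.154 without the trend, and infinite with that pseudocount. The cause of the lost calls was not tested. Calls over all genes ran between 92 and 1278 higher in epidermis, 0 and 375 higher in endodermis, and 0 and 71 lower in columella root cap. Under the rule of size 622 to 1217 genes were enriched in epidermis, against 878 as reported, 86 to 802 in endodermis, against 134, and 67 to 656 were depleted in columella root cap, against 218. The median over all genes shifted by 0.29 in epidermis and -0.12 in stele under size factors, and by -0.12 in columella root cap under quantile normalization. Rescaled to TPM, which enlarges every value by construction, the KCS genes summed to 230.4 in epidermis, 303 in cortex, and 477 and 288 in endodermis lines 1 and 2. Depth is known only relative to endodermis line 1, and no interval could be set on a single FPKM value.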
